A study of Mus musculus with 52 samples.

Results

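The retained enhancers between genes are 1587 regions of the mouse genome that are listed as enhancers in naive mouse embryonic stem cells (mESCs), overlap an enhancer of epiblast-like cells (EpiLCs) and lie outside gene bodies. They are a subset of the 8794 mESC enhancers, which with the EpiLC enhancers make 25370 regions in all. Members were chosen by position alone. Of the 8794 mESC rows, 8563 follow a first block of 231 rows, which ends where the order of the chromosomes starts anew. Of those, 7879 were shorter than 5000 bp, 3062 of these shared at least 1 bp with an EpiLC enhancer, and 2933 of these had a centre more than 1 kb from every transcription start site (TSS) of the gene table. The last step kept the 1587 regions whose centre lay outside all gene intervals no longer than 3.2 Mb, which is 51.8% of the short mESC enhancers that overlap an EpiLC enhancer.

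The study profiled chromatin in pluripotent mouse cells in which arginine replaces lysine 27 of histone H3, in 43 libraries of mESCs and 9 of EpiLCs. The mutant clones carried the change in canonical H3 only (cK27R) or in all H3 (pK27R), and these and SUZ12KO cells, without a core subunit of Polycomb repressive complex 2, were set against ABE control cells. A set of H3.3 libraries came from an H3.3 knockout, from knockout clones with wild-type (pK27WT) or K27R add-back, and from ABE cells. All cells had a C57BL6/129Sv background, mESCs grew without feeders in LIF with inhibitors of GSK3 and MEK1, and EpiLCs were taken 48 h into differentiation. The antibodies were against H3K27me2, H3K27me3, H3K27ac (a rabbit and a mouse antibody), RNA polymerase II, Med1 and H3.3, and 4 libraries were inputs. The 52 libraries fall into 34 groups, 16 with 1 library and 18 with 2, and where a mutant is given as 2 clones the clones are the replicates.

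The 3 deposited tables used here list regions, with 0 columns that give a value per library. Signal per library was not analysed here and the depth is unknown. The mESC and EpiLC enhancers come from separate earlier publications, so that a difference between the sets cannot be told apart from a difference in how each was defined. The regions are fixed lists without replicates, and no test was made. Every value below is a description, and the members are given beside 3 other sets cut by the same rules: 1346 retained enhancers inside genes, 2466 mESC-only enhancers between genes and 5259 EpiLC-only enhancers between genes, all shorter than 5000 bp and more than 1 kb from a TSS.

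An enhancer is a stretch of DNA that binds transcription factors and raises transcription from a promoter that can lie far away. Active enhancers carry acetylated lysine 27 on histone H3, written by p300 and its relative CBP, and the same residue is methylated by Polycomb repressive complex 2 at silent genes. Naive mESCs resemble the epiblast before implantation and are held by OCT4, SOX2, ESRRB and KLF factors under LIF signalling. EpiLCs resemble the epiblast soon after implantation, where OCT4 stays and OTX2 and ZIC factors gain a role, so that enhancers listed in both cell types span this transition.

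Sequences were read from the mouse genome in RefSeq (GRCm38.p6, which has the coordinates of mm10). The 200 bases on the centre of 5 members near pluripotency genes are shown on the plus strand because they cover the range seen among members, from a pair of full OCT4 sites to a window of simple repeat. Capitals mark matches to the octamer, the OCT4-SOX2 junction, SOX, the estrogen-related receptor element, KLF, STAT, PRDM14 and TCF, and matches to the other motifs searched below stay in lower case. Such unmarked matches are 1 to TEAD at Etv5, 1 to TEAD at Sall1, and 1 each to ZIC and AP-1 at Fgf15. At Dppa3, a marker of the naive state and the germ line, chr6:122624549-122624748 holds 2 copies of the octamer ATGCAAAT, the full OCT4 site, in reverse complement.
Dppa3: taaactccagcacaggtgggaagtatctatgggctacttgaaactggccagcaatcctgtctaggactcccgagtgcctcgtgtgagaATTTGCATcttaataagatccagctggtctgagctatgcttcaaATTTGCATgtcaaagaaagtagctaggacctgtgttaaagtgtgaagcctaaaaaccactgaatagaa
At Etv5, an ETS factor of pluripotent cells, chr16:22442261-22442460 holds 1 copy of the KLF letters GGGNGTGG in reverse complement.
Etv5: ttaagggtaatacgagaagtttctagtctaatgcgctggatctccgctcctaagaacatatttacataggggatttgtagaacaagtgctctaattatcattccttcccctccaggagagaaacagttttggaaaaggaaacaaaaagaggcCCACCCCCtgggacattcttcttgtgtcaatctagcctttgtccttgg
At Sall1, a zinc finger gene of pluripotent cells, chr8:89045291-89045490 holds 1 copy of the TCF letters ATCAAAG, in reverse complement at its left edge.
Sall1: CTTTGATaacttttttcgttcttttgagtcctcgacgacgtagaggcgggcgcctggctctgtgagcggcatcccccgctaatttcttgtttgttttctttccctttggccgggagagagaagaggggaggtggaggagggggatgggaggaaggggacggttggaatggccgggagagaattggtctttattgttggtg
At Fgf15, a growth factor gene of the formative epiblast, chr7:144888771-144888970 holds the same letters on the plus strand.
Fgf15: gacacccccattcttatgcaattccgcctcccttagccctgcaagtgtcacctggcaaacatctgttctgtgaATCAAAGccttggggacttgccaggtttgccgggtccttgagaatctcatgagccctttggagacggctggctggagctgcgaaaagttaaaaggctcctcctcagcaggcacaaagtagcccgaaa
At Prdm14, a naive pluripotency regulator, chr1:13130042-13130241 is a run of short pyrimidine repeats with no match to any motif searched.
Prdm14: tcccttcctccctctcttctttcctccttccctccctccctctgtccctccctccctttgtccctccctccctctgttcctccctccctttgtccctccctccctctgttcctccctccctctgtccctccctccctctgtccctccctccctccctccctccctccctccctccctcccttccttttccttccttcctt

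A pair of shorter sets shows letters of the sites of OCT4 and SOX2. These factors bind DNA side by side on a composite site whose middle reads TTGTNATGC, the end of a SOX site joined to the start of the octamer. Searched over their whole length, 6 of the 51 members at genes of the lists used below hold this junction. Over all 1587 members the same search gave 10.96%, a similar share. For these 6, 30 bases around the junction are shown in the orientation of the letters, with the junction in capitals. They lie near Cbx7, Prdm14, Fzd7, Skil, Suz12 and Cyp3a11, at chr15:79934830-79934859 (minus strand), chr1:13129678-13129707 (minus), chr1:59487508-59487537 (plus), chr3:31089549-31089578 (minus), chr11:79980786-79980815 (plus) and chr5:145907049-145907078 (minus).
Cbx7: tcctttgtgtTTGTGATGCgttttttccct
Prdm14: ctaatgacgtTTGTTATGCctataaagtaa
Fzd7: aaatgtgtgtgTTGTAATGCaccttatcta
Skil: ttaccaacttTTGTTATGCaaaccttgttc
Suz12: ctagcctgacaTTGTAATGCttataccaac
Cyp3a11: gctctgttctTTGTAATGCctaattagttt
None of the 6 runs on into a full octamer. The second set shows 4 of the 5 sequences of 21 bases around a junction that recur among members, those found in 3 or more, with one place of occurrence given for each: chr1:108548846-108548866 (minus strand) for the first, chr10:51464123-51464143 (plus) for the second, chr13:72947653-72947673 (plus) for the third and chr11:96780390-96780410 (plus) for the fourth.
Found in 9 members: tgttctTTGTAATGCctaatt
Found in 4 members, first flank: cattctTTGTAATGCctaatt
Found in 4 members, second flank: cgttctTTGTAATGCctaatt
Found in 3 members: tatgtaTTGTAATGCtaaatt
The first 3 share their right-hand part, and the Cyp3a11 site above contains the first of them. Every copy of these 4 in a member lay in bases that the genome file soft-masks as repeats.

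Members were short, and the EpiLC enhancers over them were wide. Their median length was 768 bp (quartiles 630 and 954, range 219 to 4973), beside 771.5 bp for retained enhancers inside genes, 622 bp for mESC-only and 1425 bp for EpiLC-only enhancers between genes. Only 7.50% of members were under 500 bp, against 22.3% of mESC-only enhancers, and 110 members (6.93%) were over 2 kb, against 2.15%. Just inside the 5000 bp limit were members of 4897, 4938 and 4973 bp, and just outside it regions of 5024, 5059 and 5089 bp. The length limit alone kept out 237 regions.

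Each member had its own EpiLC enhancer, which the spacing of the mESC table nearly sets. Its rows lie at least 12516 bp apart, and only 36 of the EpiLC partners were over 10 kb. The 1346 retained enhancers inside genes had 1345 distinct partners. The overlap partners, taken as the EpiLC enhancer with the longest overlap, were 1587 distinct regions with a median length of 2100 bp (quartiles 1312.5 and 3612.5), and 236 of them (14.9%) were over 5 kb, up to 32875 bp. Partners had no length limit, and the median over all EpiLC enhancers, also without a limit, was 1750 bp. The partner was wider than the member in 1366 cases (86.1%), with a median ratio of 2.53. A single EpiLC enhancer touched 1530 members, 2 touched 56 and 3 touched 1. In all, 1241 members (78.2%) were covered from end to end, against 81.6% of the retained enhancers inside genes, and 1442 (90.9%) were covered over at least 50% of their length. Centres of member and partner lay a median of 228 bp apart (quartiles 101 and 531).

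Overlap was least complete in the longest members. Of members over 2000 bp, 42.7% were wholly covered, against 78.2% of those under 500 bp, 81.7% of those of 500 to 1000 bp and 78.0% of those of 1000 to 2000 bp. Of the 5 longest, 4 are described here, and they do not give the full range of coverage. The longest, 4973 bp at chr4:143301784-143306756, lies 4.71 kb upstream of Pdpn, which encodes the membrane glycoprotein podoplanin, and was 39.1% covered. The next, 4938 bp at chr1:13127673-13132610, lies 2.98 kb upstream of Prdm14, and an EpiLC enhancer of 625 bp at its far end covered 11.3%. The third, 4897 bp at chr1:59422664-59427560, lies 57.0 kb upstream of Fzd7, a Wnt receptor gene, and was 95.4% covered by 2 EpiLC enhancers. The fifth, 4730 bp at chr2:174257337-174262066, lies 7.42 kb downstream of the microRNA gene Mir296 and was 54.2% covered. In all, 6 members had less than 10% of their length covered.

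**Figure D1:**
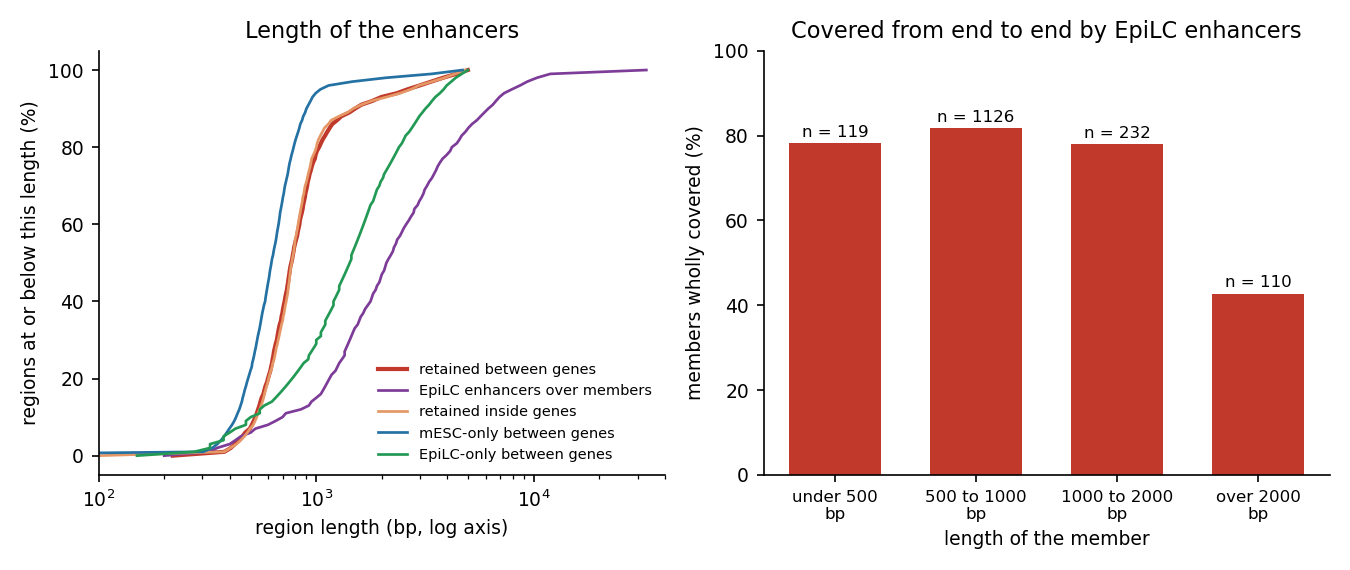
Left, the share of regions (%, vertical axis) at or below a length (bp, log axis) for members, the EpiLC enhancers over them and the 3 other sets; right, the share of members wholly covered by EpiLC enhancers (%) by member length, with the number of members over each bar. Member lengths centre on 768 bp and those of their EpiLC partners on 2100 bp, and the bar for members over 2000 bp stands at 42.7%.

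Members lay at all distances from genes, with quartiles of 11.2 and 101 kb. The median distance from centre to nearest TSS was 33.4 kb, beside 27.4 kb for retained enhancers inside genes, 50.2 kb for mESC-only and 38.0 kb for EpiLC-only enhancers between genes. Within 50 kb of a TSS lay 955 members (60.2%), against 49.9% of mESC-only and 56.9% of EpiLC-only enhancers. The classes held 360 members at 1 to 10 kb, 595 at 10 to 50 kb, 230 at 50 to 100 kb, 339 at 100 to 500 kb and 63 beyond 500 kb. The members nearest a TSS lay 1014.5, 1019 and 1037 bp away, and the regions just outside the 1 kb rule 990, 991 and 996 bp away. The farthest were 1352 kb from the TSS of 4930474H20Rik on chromosome 14, 1297 kb from that of the cadherin gene Cdh20 on chromosome 1 and 1079 kb from that of 1700009N14Rik on chromosome 4.

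**Figure D2:**
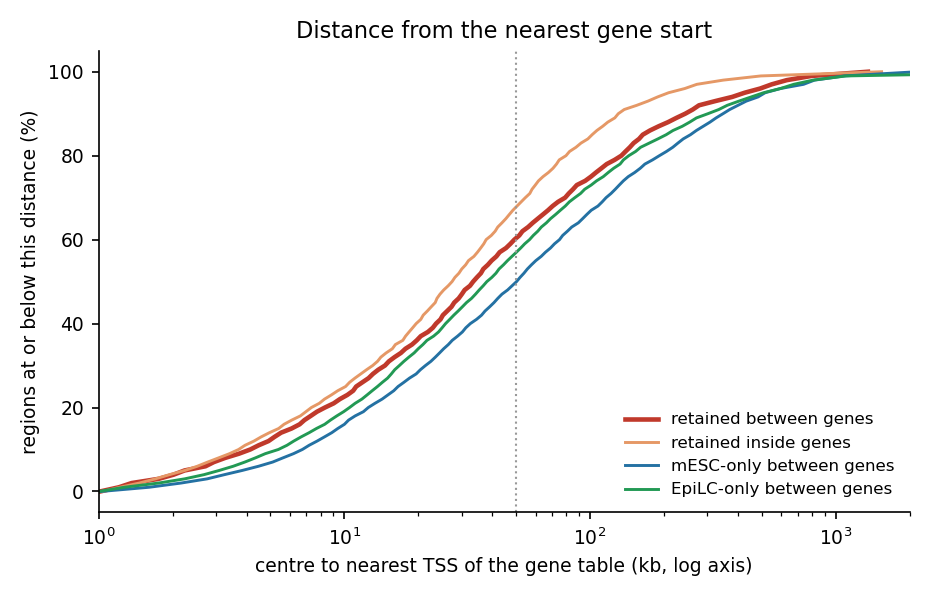
Share of regions (%, vertical axis) whose centre lies at or below a distance from the nearest TSS of the gene table (kb, log axis), for members and the 3 other sets; the dotted line marks 50 kb. The curve of the members crosses that line at 60.2%, below the retained enhancers inside genes and above the mESC-only and EpiLC-only enhancers between genes.

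Members were more often upstream of the nearest gene than downstream of it. There were 1067 of 1587 (67.2%) on the upstream side, beside 63.3% of mESC-only and 64.8% of EpiLC-only enhancers between genes. Of the retained enhancers inside genes, 16.9% were upstream. The selection takes out centres within gene intervals, which lie downstream of the TSS of that gene, and so favours the upstream side. The stretch between the 2 flanking genes had a median of 128 kb, beside 185 kb and 135 kb. Flanking genes pointed the same way around 855 members, away from each other around 443 and towards each other around 288, and 1 member had a gene on 1 side alone. The largest count per chromosome was 122, on chromosome 1, and density ran from 0.205 members per Mb on chromosome X to 0.830 on chromosome 13, with chromosome Y, where the mESC table has 0 rows after the first block, left aside. The share of the mESC rows after the first block that were members was 14.4% on X and 23.1% on chromosome 13.

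The count depends on what is called a gene. The gene table holds 97 intervals longer than 3.2 Mb, which the rule disregards, and 514 members lie inside one. Counting every interval left 1073 members. By the more detailed GENCODE M21 annotation, 1269 members (80.0%) were intergenic. The centres of 276 (17.4%) lay in an annotated gene, with 147 in a long non-coding RNA gene and 125 in a protein-coding gene, and 82 lay within 1 kb of an annotated TSS. The median distance to a GENCODE TSS was 11.8 kb.

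Members stood apart from one another. Only 29 pairs, 58 members in all (3.65%), were separated by 20 kb or less, no run of 3 was found, and the smallest gap was 12610 bp. No gap between neighbouring rows of the whole mESC table was under 12516 bp, while EpiLC enhancers were found closer together at several of the loci below. The tightest pair, spanning 14095 bp on chromosome 11, lay 102 kb from the TSS of Tmem17, a cilium gene, and the fifth tightest, spanning 15744 bp, lay on either side of Fzd7. No member overlapped a region of the first block or came within 10 kb of one, as the spacing of the mESC table requires. Within 50 kb of one came 58 members (3.65%), against 3.05% of retained enhancers inside genes and 1.34% of mESC-only enhancers between genes.

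Each member was tied to the gene with the nearest TSS if that lay within 50 kb. This gave 893 of 23613 named genes at least 1 member, 3.78% of all, of which 845 had 1, 45 had 2 and 3 had 3. The 3 genes with 3 members were Il6st, Tfap2c and Fzd7. Il6st encodes gp130, the signalling subunit of the LIF receptor, which holds cells in the naive state. Its members lay 1.36, 23.6 and 47.4 kb upstream, at chr13:112462051-112463373, chr13:112439859-112441139 and chr13:112416296-112417019, and all 3 were wholly covered by EpiLC enhancers of 2350, 2900 and 1800 bp. They are all the mESC enhancers tied to Il6st.

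Tfap2c encodes AP-2 gamma, a factor of primordial germ cells and of the formative transition. Its members lay 4.96 and 32.8 kb upstream and 27.8 kb downstream, at chr2:172544185-172545074, chr2:172516328-172517251 and chr2:172576849-172578009, and their EpiLC partners measured 1475, 3600 and 1225 bp. They too are all of the mESC enhancers tied to the gene, and no EpiLC-only enhancer was. Fzd7 had members 5.40 kb downstream and 9.19 and 33.4 kb upstream, at chr1:59487139-59487960, chr1:59472217-59473704 and chr1:59448164-59449278. The EpiLC enhancers over them measured 9925, 2200 and 12925 bp, and 3 further EpiLC-only enhancers between genes were tied to Fzd7.

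**Figure D3:**
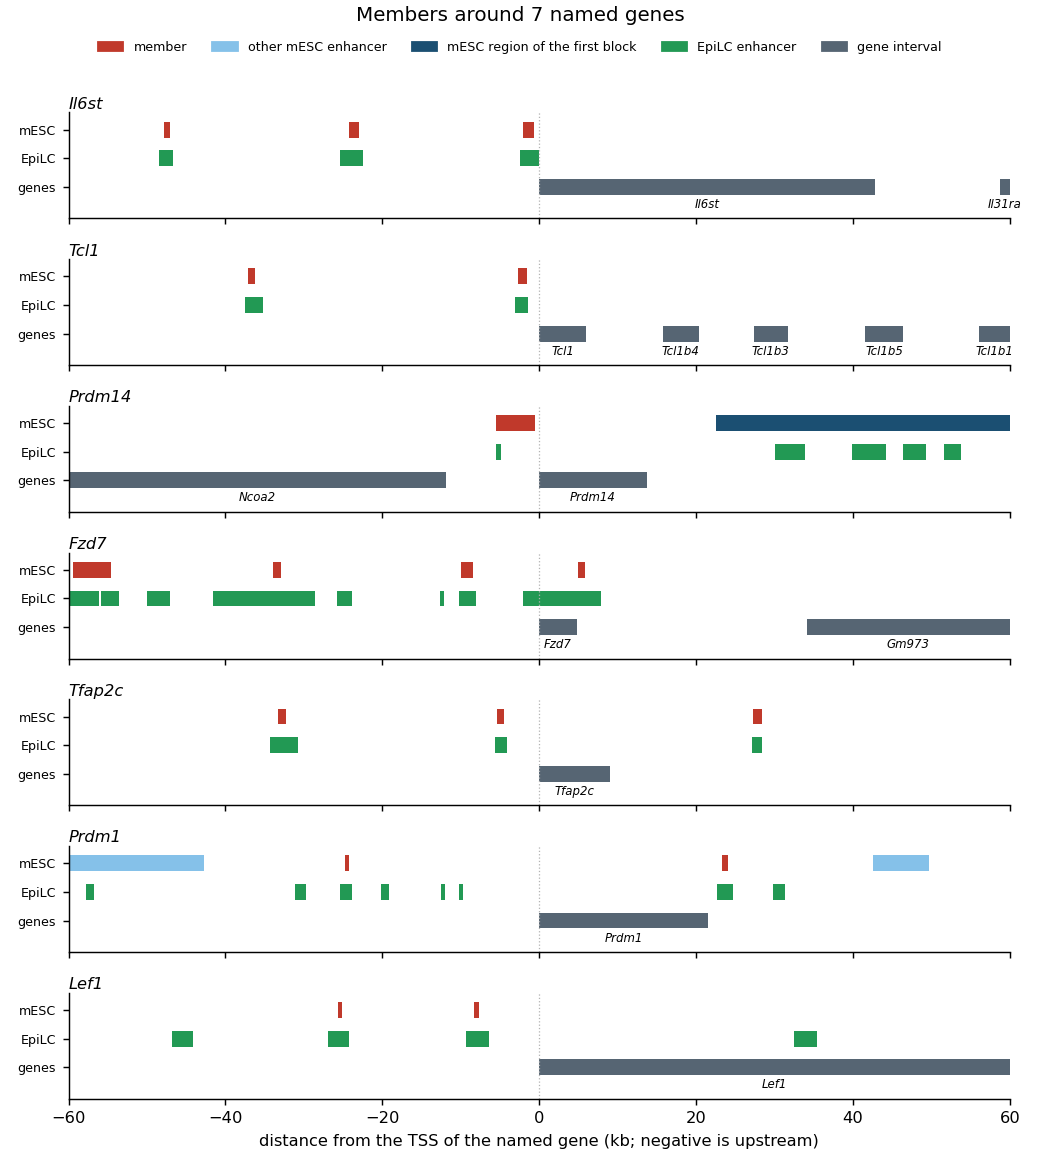
Members, other mESC enhancers, mESC regions of the first block, EpiLC enhancers and gene intervals within 60 kb of the TSS of 7 genes; the horizontal axis is distance from that TSS (kb, negative upstream) and bars are to scale, cut at the edges. The 3 members of Il6st and the 3 of Tfap2c each sit on 1 EpiLC enhancer, and the member at Prdm14 spans 4938 bp with an EpiLC enhancer of 625 bp at its far end.

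Of 28 naive pluripotency genes, 7 had a member. By the same rule 25 of the 28 had an mESC enhancer of any kind, a share that is 19.1% over all named genes. Tcl1, a cofactor of AKT, had 2, at 2.08 and 36.7 kb upstream. Dppa3 had 1 at 1.78 kb (chr6:122624240-122625057) and Prdm14 1 at 2.98 kb. Lifr, the partner of gp130, had 1 at 12.6 kb, and the KLF genes Klf2 and Klf5 had 1 each, at 15.1 and 26.2 kb. Of 17 general pluripotency genes, 16 had an mESC enhancer of any kind. A member was tied to 5 (29.4%, beside the same 3.78%), and 4 of them are described. Sall1 had 1 at 1.23 kb inside an EpiLC enhancer of 9300 bp, and Etv5 1 at 2.79 kb inside one of 24275 bp. Trim71, an RNA-binding protein gene, had 1 at 20.1 kb, and the Polycomb gene Phc1 1 at 26.3 kb.

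Of 22 formative and primed epiblast genes, 5 had a member (22.7%, beside 3.78% of all named genes). An mESC enhancer of any kind was tied to 11. Lef1, a Wnt effector, had 2 upstream at 7.98 and 25.4 kb. Etv4, an ETS factor, had 1 at 1.25 kb, 43.7% covered, and Nodal, a ligand that patterns the epiblast, had 1 at 1.57 kb inside an EpiLC enhancer of 7000 bp. Dnmt3b, a DNA methyltransferase gene, had 1 of 2023 bp at 6.87 kb (chr2:153641567-153643589), and Fgf15 1 at 7.66 kb. Etv4, Nodal, Fgf15 and Lef1 each had 1 EpiLC-only enhancer between genes as well, and Dnmt3b had none.

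The lists for FGF signalling and for Polycomb had members at 35.3% and 33.3% of their genes, beside 3.78% of all named genes. With a limit of 20 kb in place of 50 kb, FGF signalling had 4 genes with a member (23.5%) and Polycomb 4 (19.0%). The share over all named genes was then 2.40%. Any mESC enhancer was tied to 12 of 17 and to 12 of 21 of them. Of 17 genes of FGF signalling and its feedback, 6 had a member: the ERK inhibitor genes Spred1, Spred2, Spry2 and Spry4, the receptor gene Fgfr1 and the exchange factor gene Sos1, at 1.07, 6.25, 24.3, 27.4, 5.21 and 17.0 kb in that order. Of 21 Polycomb genes, 7 had a member: Cbx7, Ezh1, Suz12, Rnf2, Phf19, Jarid2 and Rybp, at distances of 2.19, 7.75, 12.2, 15.05, 23.6, 25.3 and 48.4 kb. Suz12 is the gene disrupted in the SUZ12KO cells. Its member, chr11:79980567-79981248, lies upstream of the gene and inside an EpiLC enhancer of 9625 bp.

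The other lists had members at 0% to 22.2% of their genes, beside 3.78% of all named genes. Of 18 neural regulators, 4 had a member, with the Notch target Hes1 at 2.22 kb and Sox1, Olig3 and Nkx6-1 at 36.2, 47.9 and 48.8 kb. With a limit of 20 kb, 1 of them had a member (5.56%), beside 2.40% of all named genes. Prdm1, the germ cell specifier also called Blimp1, had 2, at 23.7 kb downstream and 24.5 kb upstream, beside 5 EpiLC-only enhancers, and with Tfap2c it made up the 2 of 14 germ cell genes. Of 20 Wnt pathway genes, Fzd7 and Wnt5a had members, of 19 Nodal, Activin and BMP pathway genes only Skil, a SMAD corepressor gene, and of 20 mesoderm and endoderm regulators only T, which encodes Brachyury, at 4.17 kb. None of 20 ribosomal protein genes had one. Of 20 muscle and liver genes, Cyp3a11, a liver cytochrome gene, had 1 at 27.3 kb. The lists with 1 such gene stood at 5.0% to 5.26%, near the share over all named genes. Any mESC enhancer was tied to 13 of the neural, 4 of the germ cell and 9 of the Wnt genes. It was tied to 6 of the Nodal, Activin and BMP genes, 4 of the mesoderm and endoderm regulators and 1 each of the last 2 lists. With lists of 14 to 28 genes, a count moves by several percentage points with each gene.

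Sequence composition was read in 500 bp windows on the centres. Members had a median GC content of 46.4%, beside 46.6% in retained enhancers inside genes, 44.0% in mESC-only and 48.4% in EpiLC-only enhancers between genes, and 44.0% in 3174 windows placed 5 kb to either side of the members (of which 233 have their centre in an EpiLC enhancer). The ratio of observed to expected CpG had a median of 0.186 in members and 0.178 in those flanking windows. Repeats took a mean of 22.5% of bases in members, 21.2% in mESC-only enhancers, 34.9% in EpiLC-only enhancers and 31.7% in the flanking windows.

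Letters of the OCT4 and SOX2 sites were more frequent in members than 5 kb away. Both strands were searched. The octamer ATGCAAAT was present in 191 members (12.0%, 95% Wilson interval 10.5 to 13.7, which covers counting error only), in 5.63% of EpiLC-only enhancers and in 3.40% of flanking windows, a ratio of 3.54 to the last. The junction TTGTNATGC was present in 132 members (8.32%, interval 7.06 to 9.78), in 4.87% of EpiLC-only enhancers and in 1.51% of flanking windows, a ratio of 5.50. Its last 4 letters are the first 4 of the octamer, and its first 4 overlap the SOX letters AACAATG read in reverse. SOX matches were in 14.8% of members and 8.03% of flanking windows. EpiLC-only enhancers are longer than members, so a 500 bp window reads a smaller part of each. Over whole regions the octamer was in 16.6% of members and 12.8% of EpiLC-only enhancers, and the junction in 10.96% and 9.51%. In the 500 bp windows with repeat bases left out, the octamer was in 10.7% of members and 4.18% of EpiLC-only enhancers. The junction was then in 4.98% and 1.67%. Retained enhancers inside genes had the octamer in 10.3% and the junction in 7.80%. In mESC-only enhancers between genes they were in 11.7% and 8.56%. The intervals of these values overlap those of the members. Over all 8794 mESC enhancers, members included, the octamer was in 10.5% and the junction in 7.18%. The excess over flanking windows is thus not particular to members. Whether it follows from how the earlier publication defined mESC enhancers was not tested.

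Letters of naive and formative factors did not all follow the same order across the sets. The KLF letters GGGNGTGG were in 25.3% of members, 21.9% of mESC-only, 19.0% of EpiLC-only enhancers and 13.8% of flanking windows. Over whole regions KLF was in 37.2% of members and 39.8% of the longer EpiLC-only enhancers. In the 500 bp windows with repeat bases left out, KLF was in 11.7% of members and 10.7% of mESC-only enhancers. It was then in 9.47% of EpiLC-only enhancers and 5.77% of flanking windows. The ZIC letters CAGCAGG were in 23.9% of members and 24.4% of retained enhancers inside genes, beside 16.8% of mESC-only enhancers, 25.6% of EpiLC-only enhancers and 10.5% of flanking windows. The Wilson interval for ZIC was 21.8 to 26.0% in members and 15.4 to 18.4% in mESC-only enhancers. The estrogen-related receptor element TCAAGGNCA, the site of ESRRB, was in 7.50% of members, 8.68% of mESC-only enhancers, 4.91% of EpiLC-only enhancers and 6.24% of flanking windows. The OTX letters GGATTA were in 20.5% of members and 21.6% of flanking windows. The ETS letters CCGGAAG were in 3.65% of members, 12.1% of EpiLC-only enhancers and 1.92% of flanking windows, and the YY1 letters AAGATGG in 9.26%, 17.9% and 11.7%. With repeat bases left out, ETS was in 3.15% of members and 3.52% of EpiLC-only enhancers, and for YY1 the order turned, with 6.55% of members and 5.72% of EpiLC-only enhancers. Of the ETS matches, 10.8% lay in repeats in members, against 78.1% in EpiLC-only enhancers. Of the YY1 matches, 29.3% lay in repeats in members, against 78.6%. The other letters searched had Wilson intervals that overlapped between members and flanking windows. TEAD letters (GGAATG) were in 26.8% of members and 25.3% of flanking windows, AP-1 (TGANTCA) in 17.6% and 15.1%, TCF (ATCAAAG) in 9.14% and 8.22%, and the E-box CACGTG in 5.48% and 5.70%. Grainyhead letters (AACNGGTT) were in 4.35% of members and 3.40% of flanking windows, T-box (AGGTGTGA) in 2.58% and 2.08%, STAT (TTCCNGGAA) in 1.64% and 1.76%, PRDM14 (GGTCTCTAA) in 0.819% and 0.441%, and NRF1 (GCGCATGC) in 0.441% and 0.756%. A match is not a bound site, and a window without one says only that these letters are not in it.

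**Figure D4:**
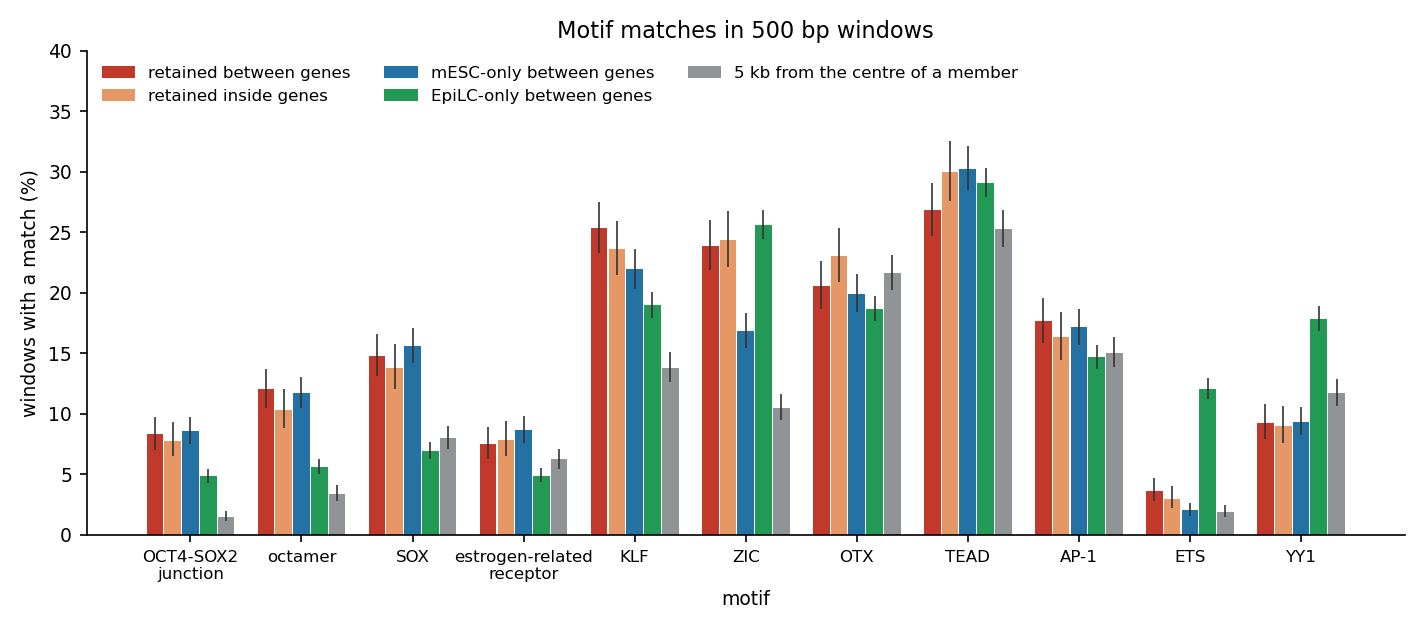
Share of 500 bp windows (%, vertical axis) with at least 1 match to each of 11 motifs, for members, the 3 other sets and windows 5 kb from a member's centre; bars are shares and error bars 95% Wilson intervals. The octamer stands at 12.0% in members and 3.40% in the flanking windows, and ZIC at 23.9% in members and 16.8% in mESC-only enhancers.

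Of 5 motifs tied to pluripotency factors (octamer, junction, SOX, estrogen-related receptor element and KLF), at least 1 was present in 52.9% of members, against 52.7% of mESC-only and 36.4% of EpiLC-only enhancers between genes and 29.6% of flanking windows. There were 626 members with 1 of the 5 motifs, 186 with 2, 27 with 3 and 748 with 0. Octamer and junction matches clustered at the middle of the members. Per 1000 members, 51.0 octamers were centred in the 100 bp left of the centre and 41.6 in the 100 bp right of it, while the bins centred 950 bp to the left and to the right held 6.30 and 8.82. The junction had 25.2 and 27.7 in the central bins and 1.89 and 3.15 in the outermost. In mESC-only enhancers between genes the central bins held 38.5 and 44.2 octamers and 30.0 and 36.9 junctions per 1000. Whether this position follows from how mESC enhancers were defined was not tested either. KLF had 78.8 and 68.7 in the central bins and 38.4 and 42.8 in the outermost. The estrogen-related receptor element had 21.4 and 16.4 in the central bins and 18.9 and 13.9 in the outermost. The left central bin was its highest, and its lowest, 9.45, was centred 550 bp to the right. In mESC-only enhancers between genes this element had 25.5 and 22.3 in the central bins and 7.70 and 10.1 in the outermost. By extent of overlap, the octamer was in 15.3% of the 346 members only partly covered by EpiLC enhancers and in 11.1% of the 1241 wholly covered, and the junction in 6.07% and 8.94%.

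The junction was most frequent in members far from genes, where matches outside repeats and in repeats were both most frequent. It was in 6.11% of members 1 to 10 kb from a TSS, 7.56% at 10 to 50 kb, 5.65% at 50 to 100 kb and 12.9% beyond 100 kb. KLF ran the other way, with 30.6%, 26.6%, 25.7% and 18.7%. Split by repeats, KLF was in 16.11%, 11.43%, 13.04% and 10.2% of members outside them. In repeats it was in 16.11%, 17.98%, 13.48% and 9.70%. Neither part of KLF fell at every step, and both were lowest beyond 100 kb. Outside repeats the junction was in 3.61%, 5.71%, 3.04% and 7.46% of members in the 4 classes, and in repeats in 2.50%, 1.85%, 2.61% and 5.47%.

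Of 136 junction matches in members, 49 (36.0%) lay in repeats, against 27.6% in mESC-only and 64.8% in EpiLC-only enhancers between genes. The octamer matches of members lay in repeats in 10.2% of cases and the KLF matches in 60.4%. The 15 bases TTGTAATGCctaatt that end the first 3 recurrent flanks printed above, and the fifth that is not printed (2 members), were found in 24 members, each time in a repeat, which is 17.6% of the junction matches of members. They were found in 14 retained enhancers inside genes, 16 mESC-only and 46 EpiLC-only enhancers between genes. The 24 members lay a median of 118 kb from a TSS, 13 of them beyond 100 kb, while the members with another junction lay a median of 30.1 kb away. The recurrent flank that ends in taaatt was in 3 members, in 8 mESC-only and in 0 EpiLC-only enhancers. Over all 136 matches there were 119 distinct sequences of 21 bases, of which 5 were seen in 2 or more members, 22 members in all.

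**Figure D5:**
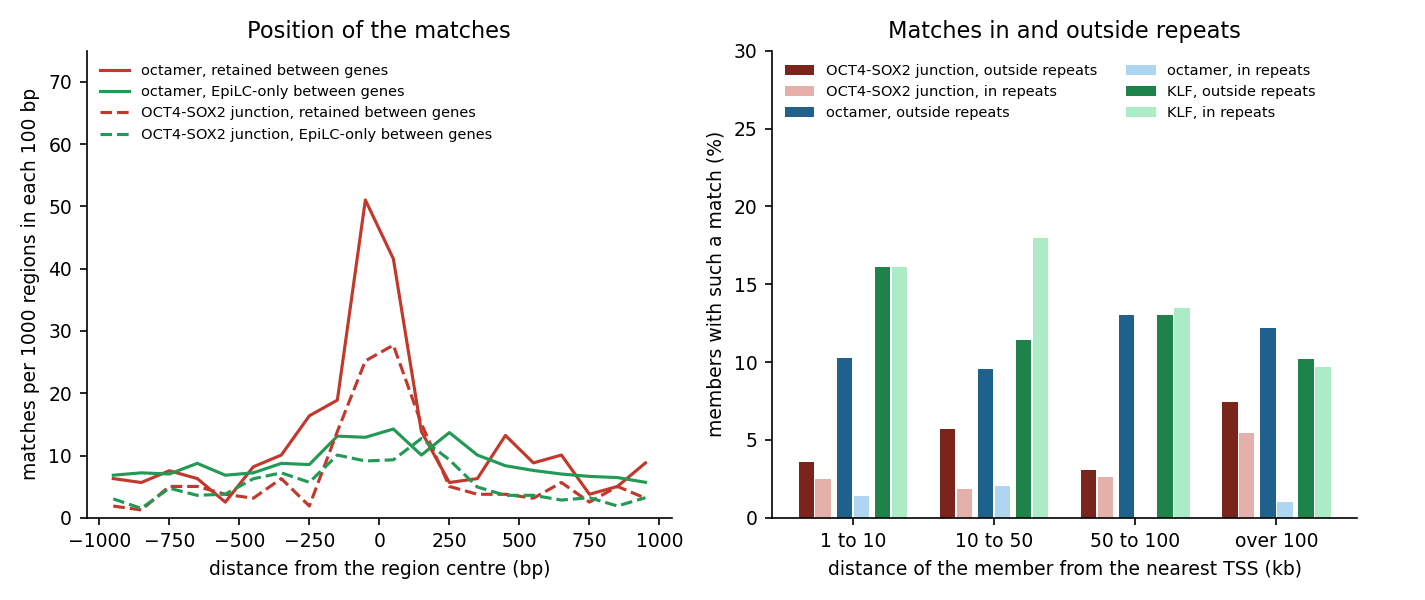
Left, octamer and junction matches per 1000 regions in 100 bp steps (vertical axis) against distance from the region centre (bp), for members and EpiLC-only enhancers between genes; right, the share of members (%) with a match outside and in repeats by distance from the nearest TSS (kb). Octamers in members peak at 51.0 per 1000 beside the centre, and beyond 100 kb the junction is in 7.46% of members outside repeats and 5.47% in repeats.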

How the data were processed

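Per the labels, chromatin from mESCs and EpiLCs was immunoprecipitated and sequenced; Bowtie2 2.3.4.1, Trimmomatic 0.38 and bedtools 2.29.2 are named in the submitters' processing notes. The deposited tables hold region coordinates in mm10, with no count or signal per library; per the series' design text the authors lifted both enhancer sets over from earlier publications, by a tool not given in the sources used here.

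Starts were read as counting from 0, and coordinates are printed counting from 1. Intervals, genes and sequence were handled with Python 3.11.15, pandas 2.3.3, pysam 0.24.0 and samtools 1.23.1, on the RefSeq GRCm38.p6 genome, whose soft-masked bases were taken as repeats. Gene intervals were named from RefSeq or GENCODE M21, which gave 23811 of 24402 a name. A motif match counted as lying in a repeat if at least 50% of its bases were masked. The overlap, distance and motif steps returned the known answers on simulated regions.

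The members, the 12 gene lists and the 18 motifs were chosen with earlier results of these data known. Named genes are the 10 with most members, up to 4 per list by number of members and then distance, and the longest, farthest and most closely paired members; Lifr, Klf2, Klf5, Phc1, Fgf15, Spry2, Spry4, Phf19, Jarid2 and Rybp were added so that the short lists are given more fully, and 1 gene that the rule names is not reported here. Sequences were taken at members nearest a TSS in the pluripotency lists, of which 5 of 12 are printed, picked after their motifs were seen. None on chromosome 18 was considered. Alternatives were run for each choice and are given at the end.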

Additional observations from a re-analysis of the deposited data

How the results depend on the processing

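Of 93 alternatives, 62 stayed within 1.5 times a count or within the spread of a value, and 31 did not. Counting starts from 1 moved none of 24 values. Asking for 50% overlap of both regions left 398 members, and 50% of the member alone raised the share wholly covered to 87.33%. With GENCODE M21 the median TSS distance was 11.8 kb and 86.96% lay within 50 kb. Chains held 0% of members at gaps up to 10 kb and 16.38% at up to 50 kb. Genes with a member numbered 566 at 20 kb (2.40% of all named genes) and 1813 when every gene within 50 kb counted (7.68%). Those of general pluripotency numbered 3 at 20 kb and 8 at 100 kb, where the share over all named genes was 4.57%. At 20 kb Polycomb genes with a member numbered 4 and neural regulators 1. Over the whole member the junction was in 10.96%, the octamer in 16.64%, the estrogen-related receptor element in 13.04% and KLF in 37.18%. Over whole EpiLC-only enhancers between genes they were in 9.51%, 12.8%, 16.2% and 39.8%, so the last 2 exceed the members. In 200 bp the shares of members were 5.041%, 8.381%, 3.529% and 11.47%. With repeats left out, GC was 46.69% and the junction, estrogen-related receptor element and KLF were in 4.978%, 4.726% and 11.66%. Shorter windows and masked bases hold fewer letters to match. Requiring the whole region to lie outside genes, an alternative chosen after seeing the data, left 1572 members. No paired analysis was possible because the tables hold no value per library.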
